A study of Mus musculus with 3 samples.

Results

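Expression of 6 claudins and 4 keratins was followed in the mouse intestinal epithelium, across the cell classes of the crypt and between Arid3a cKO and WT mice. The claudins are Cldn2, Cldn3, Cldn4, Cldn7, Cldn15 and Cldn23, and the keratins are Krt8, Krt18, Krt19 and Krt20. They were matched by symbol to the gene list of the count matrices, where each symbol occurred once, and make up 10 of the 51912 genes listed. Each of the 10 genes passed the filter of 30 summed unique molecular identifiers (UMIs) in every comparison below.

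Claudins are membrane proteins that join neighbouring epithelial cells at the tight junction and set which ions and solutes can pass between the cells. Some members, Cldn2 and Cldn15 among them, form paracellular channels for small cations, whereas Cldn3, Cldn4 and Cldn7 are mostly described as sealing or barrier-related members. Keratins are intermediate filament proteins that polymerise as heterodimers of a type I and a type II chain, and the filaments anchor at desmosomes. In the simple epithelium of the intestine Krt8 is the main type II chain, and Krt18, Krt19 and Krt20 are its type I partners.

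The study profiled Epcam-positive, CD45-negative, CD31-negative, DAPI-negative cells sorted from isolated intestinal crypts, with the 10x Genomics 3′ assay. In all, 2 libraries came from Arid3a cKO mice (VillinCreERT2; Arid3a fl/fl) and 1 from a WT mouse that carried VillinCreERT2 alone, so Cre was present in all 3. Mice of both genotypes were given tamoxifen at 8 to 10 weeks of age and were harvested 1 month after the first injection. VillinCreERT2 acts in the villin-expressing epithelium, so deletion is limited to the lineage that the sort retains, and the floxed exons are not given in the sources used here. The study design names 2 biological replicates per condition, and 1 WT library was analysed here.

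In total, 5594 of 25554 barcodes had at least 1000 genes and at most 15% of UMIs from mitochondrial genes. The share kept was 31.2% and 22.5% for the cKO libraries and 16.2% for WT 1, with 66.4%, 75.6% and 79.2% of barcodes over the mitochondrial limit. Kept cells held 58169310 to 70922480 UMIs per library, with a median of 29895 to 35764 UMIs per cell, and any pair of libraries shared at most 2 barcodes among kept cells. Epcam and Vil1 were abundant in every library, at 1665 to 1969 and 470.4 to 501 UMIs per 1000000 UMIs (CPM), whereas Ptprc, which encodes CD45, and Pecam1, which encodes CD31, lay between 0.282 and 1.45 CPM. Arid3a had 42, 52 and 161 UMIs in Arid3a cKO 1, Arid3a cKO 2 and WT 1, a log2 fold change (cKO over WT) of -1.76 (SE 0.29, edgeR quasi-likelihood test, adjusted p = 0.0444). A 3′ tag outside the deleted exons would not report the deletion, so the remaining UMIs do not measure how complete it was.

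Cells were clustered without the 10 genes, and clusters were named from marker lists as intestinal stem cell (ISC)-like (867 cells), transit-amplifying (TA)-like (900 cells), enterocyte-like (2113 cells), goblet-like (396 cells), enteroendocrine-like (174 cells), tuft-like (98 cells) and Paneth-like (80 cells). A cluster of 769 cells led by 1500035N22Rik, Ccl20, Edn2, Bmp3 and Car4 met no marker list and is called the Ccl20-led cluster; 197 further cells in 2 other clusters stayed unnamed. Cells in the top 5% of Scrublet doublet scores made up 13.2%, 11.9% and 11.2% of enteroendocrine-like, goblet-like and tuft-like cells, and 1.89% to 7.11% of the ISC-like, TA-like, enterocyte-like and Ccl20-led cells. Values are given per library in the order Arid3a cKO 1, Arid3a cKO 2 and WT 1, as CPM of the same cells. A 3′ UMI counts a transcript molecule once whatever its length. Median UMIs per cell differed by class: 9164 in tuft-like, 16087.5 in enteroendocrine-like, 32569 in enterocyte-like and 130961 in Paneth-like cells. CPM is a share of all transcripts of a class, so orders of classes in CPM are not orders of molecules per cell.

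Several of the genes share a chromosome. Cldn4 (GRCm38 chr5:134945119-134946934, minus strand) and Cldn3 (chr5:134986214-134987472, plus strand) are single-exon genes 39279 bases apart on chromosome 5, which also holds Cldn15. Krt8 (chr15:101996698-102004482, minus strand) and Krt18 (chr15:102028180-102032027, plus strand), which encode a type II and a type I chain, are 23697 bases apart, and Krt19 and Krt20 are 702659 bases apart on chromosome 11. Cldn2 lies on chromosome X.

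The RefSeq table (GRCm38.p6) held promoters of 8 of the 10 genes, without Cldn23 and Krt19. The 250 bases before the start site are shown for 4 genes. Cldn4 (chr5:134946935-134947184, minus strand), Krt18 (chr15:102027966-102028215, plus strand) and Krt20 (chr11:99438154-99438403, minus strand) had a called difference between genotypes. Cldn2 (chrX:139800558-139800807, plus strand) had none within a cell set, but was called in the test below of whether that difference depends on the cell set. Capitals mark exact matches, on either strand, to the TATA box letters TATAAA, to ATTAAA and ATCAAA as letters of the ARID3A motif, and to TTTATG as letters of the CDX2 motif; none of these letter strings overlapped another in the 4 promoters.
Cldn2: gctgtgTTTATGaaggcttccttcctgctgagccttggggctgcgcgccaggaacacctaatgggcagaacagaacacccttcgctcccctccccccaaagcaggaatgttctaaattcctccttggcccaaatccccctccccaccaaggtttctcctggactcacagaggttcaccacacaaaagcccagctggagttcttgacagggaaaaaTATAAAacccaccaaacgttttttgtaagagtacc
Cldn4: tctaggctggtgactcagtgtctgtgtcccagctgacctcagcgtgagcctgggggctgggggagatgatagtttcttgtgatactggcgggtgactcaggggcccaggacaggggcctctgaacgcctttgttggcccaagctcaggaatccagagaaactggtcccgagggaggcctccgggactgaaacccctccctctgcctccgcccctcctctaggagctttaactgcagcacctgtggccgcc
Krt18: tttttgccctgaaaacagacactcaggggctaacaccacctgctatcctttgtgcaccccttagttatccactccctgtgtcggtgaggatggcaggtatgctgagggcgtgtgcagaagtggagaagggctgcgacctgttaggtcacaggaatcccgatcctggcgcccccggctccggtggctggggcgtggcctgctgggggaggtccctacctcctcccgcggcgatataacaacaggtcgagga
Krt20: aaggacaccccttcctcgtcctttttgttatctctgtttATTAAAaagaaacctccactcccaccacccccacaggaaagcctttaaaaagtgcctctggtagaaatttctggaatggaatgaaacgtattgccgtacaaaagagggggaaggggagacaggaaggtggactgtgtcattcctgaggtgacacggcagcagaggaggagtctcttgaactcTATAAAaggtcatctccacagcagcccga
Cldn2 and Krt20, the genes with the largest log2 ratios between enterocyte-like and crypt cells below, each held TATAAA, 35 and 29 bases before the start. Krt20 also held ATTAAA 211 bases before the start and Cldn2 held TTTATG 244 bases before the start, whereas Cldn4 and Krt18 held none of the 4 strings. Over 32851 mouse promoters of the same length, 12.4% held TATAAA, 12.7% ATTAAA, 10.6% ATCAAA and 10.8% TTTATG. A match describes letters only and is no evidence of binding.

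The claudins divided into genes with level expression over the classes and genes with steep differences. Cldn2, a cation and water channel claudin, was highest in ISC-like cells (105, 118 and 121 CPM) and TA-like cells (96.1, 101 and 103 CPM), whose ranges did not overlap. It fell to 5.31, 7.51 and 4.06 CPM in enterocyte-like cells, the lowest of all classes, and this low was separate from the next lowest, Paneth-like cells (16.7, 9.05 and 16.5 CPM). Enteroendocrine-like, tuft-like and goblet-like cells and the Ccl20-led cluster lay between, at means of 24.2 to 35.3 CPM with overlapping ranges. These class levels are a description of 3 libraries, with no test.

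Cldn15, the other channel-forming claudin, ran the opposite way. Its levels were 406, 394 and 437 CPM in enterocyte-like cells and 253, 278 and 265 CPM in the summed ISC- and TA-like cells. The enterocyte-like range overlapped that of the Ccl20-led cluster (361, 357 and 397 CPM), and both lay above goblet-like, TA-like and ISC-like cells. Tuft-like, enteroendocrine-like and Paneth-like cells had overlapping ranges from 38.1 to 137 CPM, with the tuft-like high in Arid3a cKO 2 alone resting on 56 UMIs.

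Cldn7 and Cldn3, the most abundant claudins, were present in every class. Cldn7 ranged from a mean of 1463 CPM in the Ccl20-led cluster to 846 CPM in enteroendocrine-like cells. In CPM only Paneth-like cells stood far below, at 193, 108 and 177. Their Cldn7 UMIs were 695, 274 and 578 from 34, 17 and 29 cells. Enteroendocrine-like cells had 733, 599 and 1325 from 45, 42 and 87 cells, so per cell Paneth-like cells were not below them. Cldn3 followed the same order at its ends, with 1298, 1278 and 1055 CPM in the Ccl20-led cluster and 182, 137 and 124 CPM in Paneth-like cells. TA-like, ISC-like, enterocyte-like and tuft-like cells had overlapping ranges for Cldn3, and the goblet-like range (854 to 1094 CPM) overlapped that of TA-like cells but lay above those of ISC-like, enterocyte-like and tuft-like cells. Cldn23, a less studied claudin, was highest in the Ccl20-led cluster (162, 123 and 126 CPM), clear of every other class, and had means of 48.2 to 68.8 CPM in goblet-like, enterocyte-like, TA-like and ISC-like cells.

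Cldn4, a claudin linked to barrier sealing, was low in the absorptive lineage and had its highest CPM in the enteroendocrine-like class. Enteroendocrine-like cells had 155, 187 and 175 CPM, above every other class. Goblet-like cells followed with 91.3, 58.5 and 45.1 CPM and Paneth-like cells with 48.9, 44.4 and 18.7 CPM. Paneth-like cells held 176, 113 and 61 Cldn4 UMIs in 34, 17 and 29 cells. Enteroendocrine-like cells held 130, 141 and 268 in 45, 42 and 87 cells. Per cell, Paneth-like cells were thus the higher of these classes in both cKO libraries and the lower in WT 1. The remaining classes had overlapping ranges, from 24.5, 22.6 and 13.1 CPM in ISC-like cells down to 10.4, 10.0 and 6.89 CPM in enterocyte-like cells. In all classes except the enteroendocrine-like cells and the Ccl20-led cluster, WT 1 was the lowest of the 3 libraries.

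Among the keratins, Krt8 and Krt18 had their highest CPM in tuft-like cells. Krt18 had 11857, 6616 and 13374 CPM there against 1908, 1771 and 1656 CPM in goblet-like cells, the next class. Krt8 had 7110, 5068 and 7588 CPM in tuft-like cells, from 3446, 2078 and 3473 UMIs. The Ccl20-led cluster had 46336, 31460 and 27226 Krt8 UMIs from 354, 201 and 214 cells, more per cell in each library. The tuft-like sums rest on 38, 20 and 40 cells, and the lowest value of each keratin was that of Arid3a cKO 2, the library in which the same cells had the most Krt19 (293, 1149 and 153 CPM).

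Krt18 and Krt20 took opposite ends of the enterocyte lineage. Krt18 dropped from 710, 647 and 582 CPM in ISC-like cells through 533, 472 and 428 CPM in TA-like cells to 70.3, 62.9 and 49.8 CPM in enterocyte-like cells, with no overlap between these steps. Krt20, the keratin of mature surface cells, had 10.8, 23.7 and 26.2 CPM in ISC-like cells and 521, 597 and 668 CPM in enterocyte-like cells. Its enterocyte-like range overlapped that of enteroendocrine-like cells (423, 472 and 624 CPM), and goblet-like cells came next at 302, 311 and 363 CPM.

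Krt19, a type I keratin without a tail domain, was highest in the Ccl20-led cluster, at 4099, 4014 and 3903 CPM, where Krt8 also had 4136, 3990.0 and 3888 CPM. TA-like and ISC-like cells followed for Krt19 with overlapping ranges between 1627 and 2147 CPM, and enterocyte-like cells had 1257, 968 and 881 CPM. Krt8 was lower than in that cluster in TA-like, ISC-like and enterocyte-like cells, with means of 2305, 1965 and 1926 CPM and ranges that overlapped from each to the next. Krt8-ps, a Krt8 pseudogene in the gene list, held 43 to 65 UMIs per library, and how reads shared between the 2 copies were counted was not examined.

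**Figure D1:**
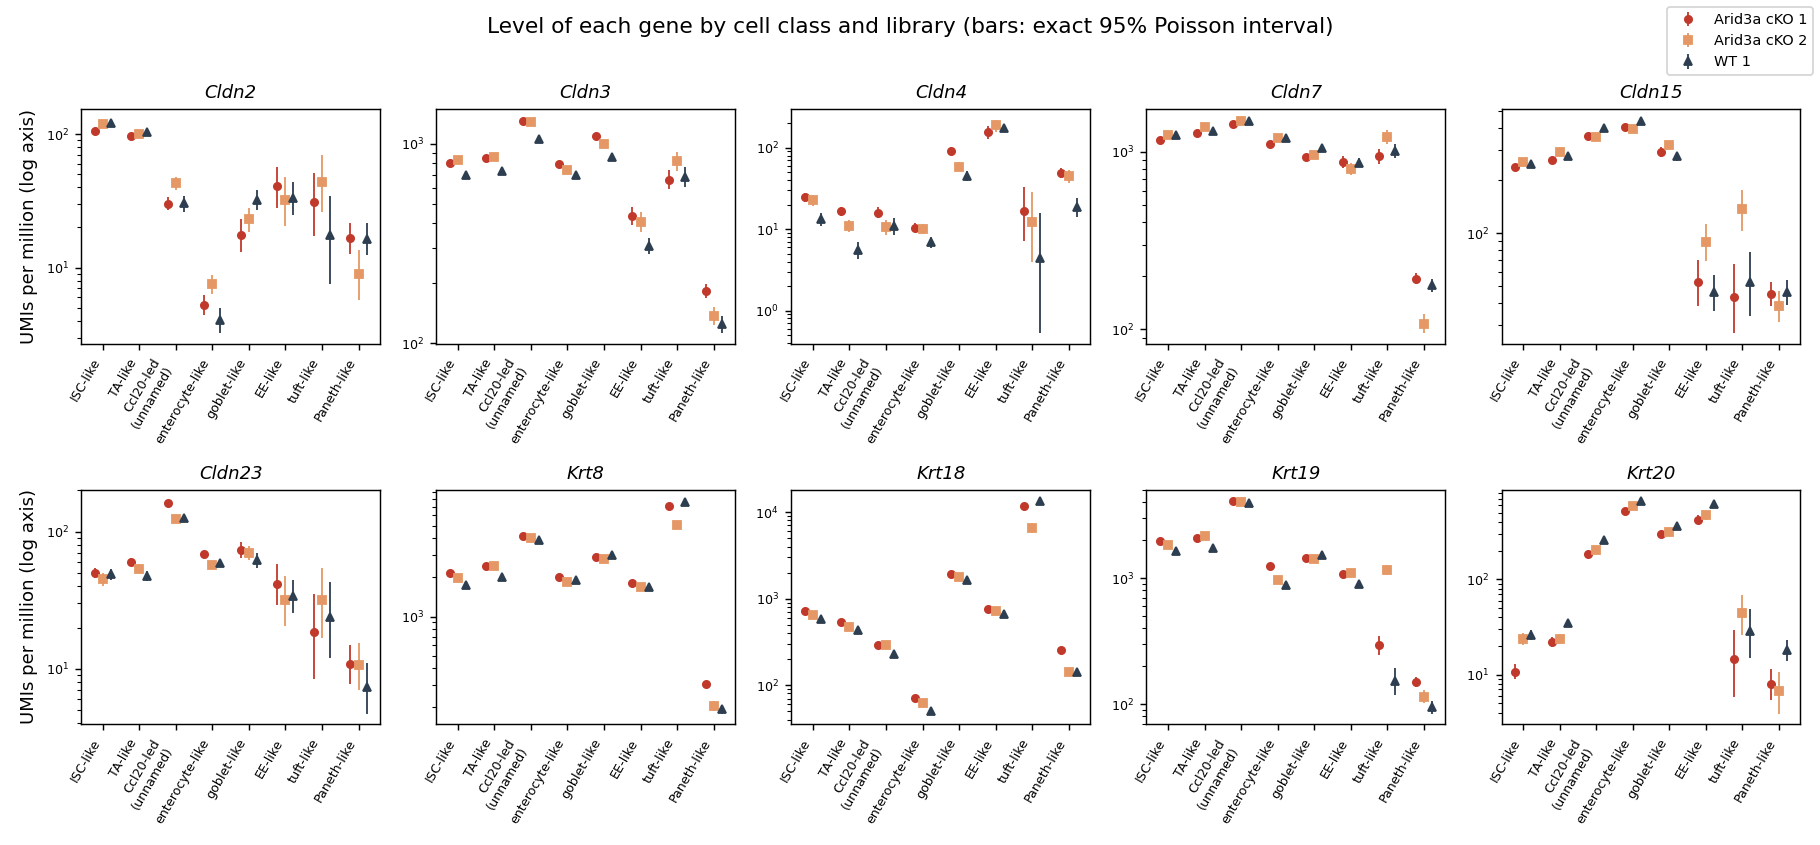
Level of each gene in each cell class and library, in CPM on a log axis, with exact 95% Poisson intervals that cover counting error only. Circles are Arid3a cKO 1, squares Arid3a cKO 2 and triangles WT 1. Cldn2 falls from about 115 CPM in ISC-like to 5.63 CPM in enterocyte-like cells on average, Krt20 goes the other way, and Krt18 reaches 10616 CPM in tuft-like cells.

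Summarised as the log2 ratio of enterocyte-like to ISC- and TA-like level, averaged over the 3 libraries, the genes spanned from Cldn2 at -3.40 (SD 0.26) and Krt18 at -3.07 (SD 0.10) to Krt20 at 4.39 (SD 0.18). Krt19 (-0.89, SD 0.18) and Cldn15 (0.63, SD 0.11) had smaller ratios with the same sign in all 3 libraries. Cldn3, Cldn7, Cldn23 and Krt8 lay within 0.25 of 0. Cldn4 had a ratio of -0.45 (SD 0.25), and its value ran from -0.70 in Arid3a cKO 1 to -0.20 in WT 1.

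To follow the same genes along the crypt to villus order, the 4649 ISC-like, TA-like, enterocyte-like and Ccl20-led cells were ranked by the share of villus landmark UMIs among villus and crypt landmark UMIs, and divided into 5 bins of equal size over the 3 libraries. Bins 1 and 2 held mostly ISC-like and TA-like cells, bin 3 held 66.9% Ccl20-led cells and 32.2% enterocyte-like cells, and bins 4 and 5 held 97.0% and 98.2% enterocyte-like cells. Each bin had 226 to 465 cells per library.

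The levels of 9 genes took 3 shapes along this order. Cldn2 and Krt18 fell at every step: Cldn2 from 116, 121 and 119 CPM in bin 1 to 2.42, 3.09 and 2.21 CPM in bin 5, and Krt18 from 730.2, 626 and 545 CPM to 49.8, 45.7 and 37.6 CPM. Cldn15 and Krt20 rose, with Krt20 at 6.60, 8.86 and 5.80 CPM in bin 1 and 566, 607 and 671 CPM in bin 5. Cldn15 levelled off in WT 1, with 436 CPM in bin 4 and 431 CPM in bin 5. Bin 3 lay midway, where Krt20 had reached 273, 296 and 356 CPM and Cldn2 was at 22.4, 35.9 and 25.6 CPM.

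The third shape was a peak in bin 3 of the mean over libraries, shared by Cldn3, Cldn7, Cldn23, Krt8 and Krt19. For Cldn7 bins 2 and 3 were close (1386 and 1412 CPM on average), and in Arid3a cKO 1 bin 2 was the higher (1353 against 1346 CPM). Krt19 rose from 1323, 1365 and 1141 CPM in bin 1 to 3435, 3528 and 3375 CPM in bin 3, then fell to 839, 646 and 691 CPM in bin 5. Krt8 peaked at 3681, 3692 and 3614 CPM, and Cldn23 at 141, 112 and 117 CPM. Cldn4 followed none of these shapes, with means of 20.6, 9.14, 14.2, 8.87 and 6.46 CPM from bin 1 to bin 5. Because bin 3 was mostly the Ccl20-led cluster, the peak and the high class levels of that cluster are the same cells counted in another way. The mean bin, weighted by CPM, ordered the genes as Cldn2 (1.71), Krt18 (1.90), Cldn4 (2.55), Krt19 (2.72), Cldn3 (2.94), Krt8 (2.95), Cldn7 (2.95), Cldn23 (3.08), Cldn15 (3.28) and Krt20 (4.13), with SDs over libraries of 0.011 to 0.16.

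**Figure D2:**
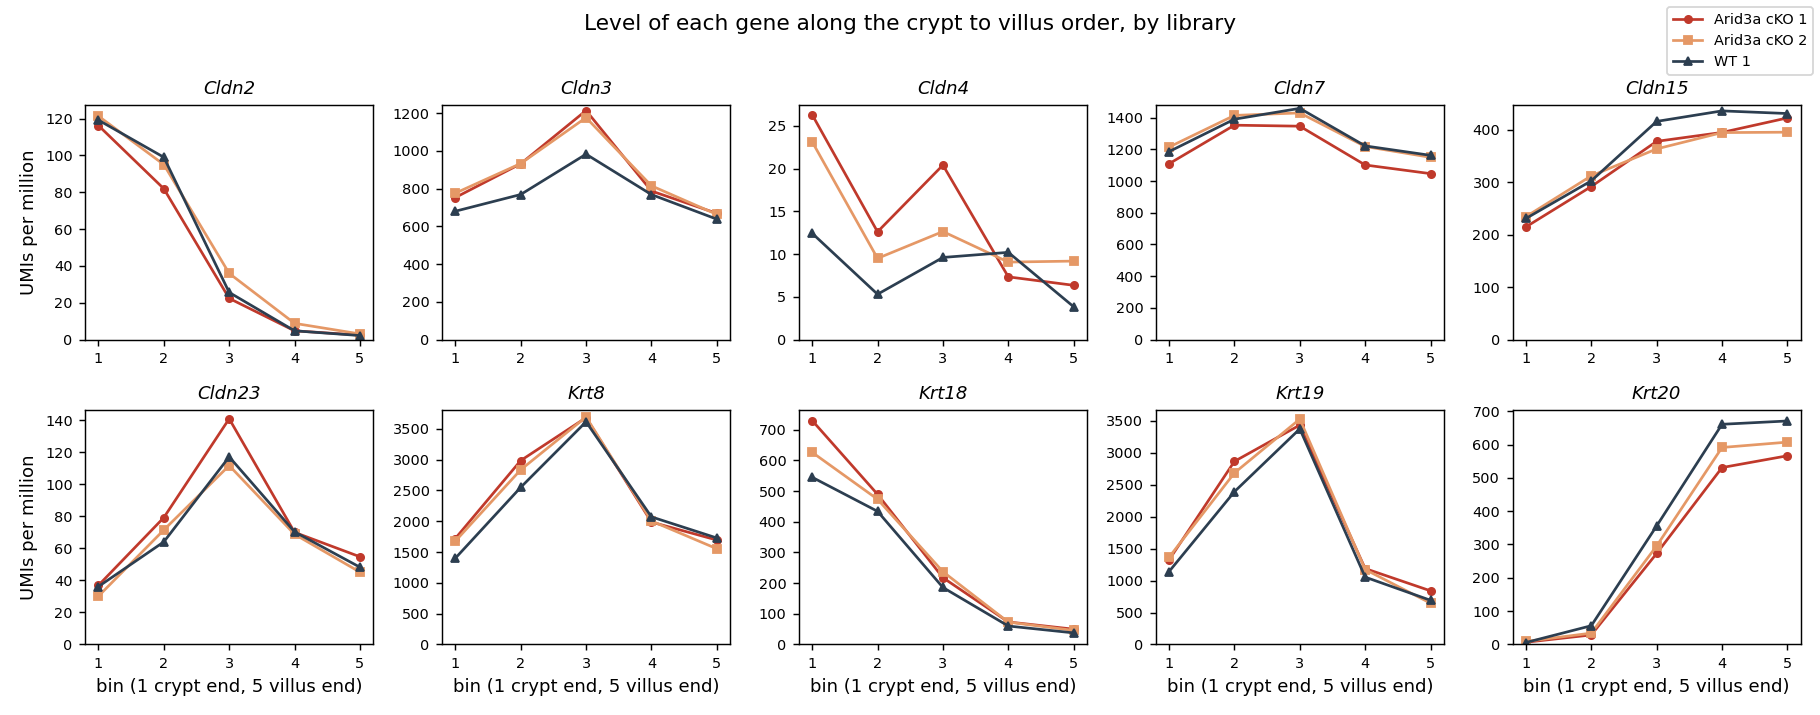
Level of each gene in CPM (vertical axes from 0) over the 5 bins of the crypt to villus order, with 1 line per library: circles Arid3a cKO 1, squares Arid3a cKO 2, triangles WT 1. Cldn2 and Krt18 fall from bin 1, Krt20 is highest in bin 5, Cldn15 is high in bins 4 and 5, and Cldn3, Cldn23, Krt8 and Krt19 peak in bin 3 in each library; both cKO lines lie above the WT line in all 5 bins for Krt18 and Cldn3.

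Genotypes were compared on UMIs summed per library, with edgeR's quasi-likelihood test and Benjamini-Hochberg adjustment over all genes tested, in all kept cells, in enterocyte-like cells and in ISC- and TA-like cells. With 1 WT library, the fit has 1 residual degree of freedom and assumes that the WT library varies as the cKO libraries do. The variance of each gene is moderated over all genes tested. The edgeR p-values therefore rest largely on the spread of other genes, not on replicates of the gene itself. The SEs given with them are derived from the same test statistic. In all kept cells, 0 of the 10 genes were called at an adjusted p below 0.05, against 0.513% of the 15986 genes tested. DESeq2 also called 0. An unadjusted edgeR p below 0.05 was found for 1780 of the 15986 genes tested and for 3 of the 10. These were Cldn4 (21.8, 19.2 and 15.4 CPM, log2 fold change 0.45, SE 0.12, adjusted p = 0.196), Cldn3 (859, 833 and 706 CPM, 0.29, SE 0.10, adjusted p = 0.33) and Krt19 (1917, 1748 and 1509 CPM, 0.31, SE 0.11, adjusted p = 0.352). In each of the 3, both cKO libraries lay above WT 1, but the fold changes did not pass the adjusted threshold. The mix of classes differed between libraries. The Ccl20-led cluster, highest in Krt19 and Cldn3, had 354, 201 and 214 of 2134, 1550 and 1910 kept cells. Within it Krt19 had 4099, 4014 and 3903 CPM and Cldn3 had 1298, 1278 and 1055 CPM. The part of the class mix in these fold changes was not tested. The median log2 fold change was 0.11 over the 10 genes and -0.0044 over all genes tested.

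In ISC- and TA-like cells, 2 of the 10 genes were called, against 1.43% of 13749 genes tested. Cldn4 rose. Its UMIs were 498, 320 and 198, or 20.1, 15.5 and 8.67 CPM, so both cKO libraries lay above WT 1, and the 95% Poisson intervals of the 3 libraries did not overlap with that of WT 1. The log2 fold change was 1.05 (SE 0.18, edgeR, adjusted p = 2.37e-06), a 2.06-fold higher level in Arid3a cKO. Both component classes had the same order, with 24.5, 22.6 and 13.1 CPM in ISC-like cells and 16.7, 11.02 and 5.48 CPM in TA-like cells. Cldn4 was called in 8 of 9 alternative settings, with log2 fold changes of 0.94 to 1.12; DESeq2 was the exception (adjusted p = 0.0693).

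Markers of other cell types were summed in the same cells. Summed enteroendocrine markers in the ISC- and TA-like cells were 390.0, 134 and 542 CPM, goblet markers 675, 811 and 1065 CPM, and Paneth markers 737, 890 and 1272 CPM, each highest in WT 1, where Cldn4 was lowest. Immune markers summed to at most 0.394 CPM in these cells, with 4 to 7 of the 10 markers at 0. The part of other cell types in the result was not tested.

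Krt20 fell in ISC- and TA-like cells. It had 424, 488 and 718 UMIs, or 17.1, 23.7 and 31.4 CPM, with both cKO libraries below WT 1 and no overlap between the 3 Poisson intervals. By component class, TA-like cells had 22.1, 23.7 and 35.2 CPM and ISC-like cells 10.8, 23.7 and 26.2 CPM. In ISC-like cells the intervals of Arid3a cKO 2 (20.4 to 27.3 CPM) and WT 1 (23.0 to 29.6 CPM) overlapped. The log2 fold change in the summed cells was -0.62 (SE 0.15, edgeR, adjusted p = 0.0046). This call was kept in 4 of 9 alternative settings, with log2 fold changes of -0.79 to -0.35, and DESeq2 was among those that lost it (fold of -0.61). Without Arid3a cKO 1 the fold was -0.39, and without Arid3a cKO 2 it was -0.89. Krt20 in enterocyte-like cells had the same order of libraries (521, 597 and 668 CPM), as had the goblet and Paneth marker sums above; enterocyte marker sums in the ISC- and TA-like cells did not (4469, 4986 and 4707 CPM). Whether RNA from enterocytes or goblet cells contributed to the low Krt20 level in crypt cells was not tested.

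The other 8 genes did not pass the threshold in ISC- and TA-like cells. Krt19 had 2035, 2018 and 1687 CPM (0.27, SE 0.15, adjusted p = 0.708), Krt8 had 2316, 2260.2 and 1919 CPM (0.26, SE 0.15, adjusted p = 0.745), and Cldn3 had 830, 845 and 713 CPM (0.24, SE 0.15, adjusted p = 0.791). In these 3 genes and in Krt18 and Cldn23 the WT library was the lowest. Cldn2, Cldn7 and Cldn15 had log2 fold changes of -0.09, -0.0039 and 0.0088.

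In enterocyte-like cells, 1 of the 10 genes was called, against 2.45% of 11999 genes tested. Krt18 rose: it had 1840, 1307 and 1054 UMIs, or 70.3, 62.9 and 49.8 CPM, and both cKO libraries lay above WT 1. The log2 fold change was 0.43 (SE 0.10, edgeR, adjusted p = 0.0165), a 1.35-fold higher level. The libraries differed in cell position: bins 4 and 5 held 389 and 284 cells of Arid3a cKO 1, 245 and 297 of Arid3a cKO 2, and 296 and 348 of WT 1. By bin, Krt18 had 73.3, 72.8 and 60.1 CPM in bin 4 and 49.8, 45.7 and 37.6 CPM in bin 5. The part of cell position in the fold change was not tested. The call was kept in 5 of 9 alternative settings, not with DESeq2 (adjusted p = 0.566), with log2 fold changes of 0.29 to 0.47. ISC markers (49.3, 35.5 and 33.7 CPM), TA markers (87.7, 68.5 and 64.3 CPM) and tuft markers (62.9, 59.9 and 56.7 CPM) in the enterocyte-like cells had the same order of libraries as Krt18, and goblet markers (340, 537 and 959 CPM) the opposite order; their part in the result was not tested.

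Of the 9 genes not called in enterocyte-like cells, Cldn4 came nearest, with 10.4, 10.0 and 6.89 CPM (0.58, SE 0.17, adjusted p = 0.085). Cldn2 had a fold change of 0.66 (SE 0.25, adjusted p = 0.227) on 139, 156 and 86 UMIs, which was 0.92 without Arid3a cKO 1 and 0.37 without Arid3a cKO 2. Krt19 had 1257, 968 and 881 CPM (0.34, SE 0.16, adjusted p = 0.33), with Arid3a cKO 1 far above the other two; the fold was 0.17 without Arid3a cKO 1 and 0.50 without Arid3a cKO 2. Krt20, which is at its most abundant here, had a log2 fold change of -0.25 (SE 0.13, adjusted p = 0.435), and of -0.13 without Arid3a cKO 1 and -0.37 without Arid3a cKO 2. Cldn3, Cldn7, Cldn15, Cldn23 and Krt8 lay between -0.12 and 0.14.

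**Figure D3:**
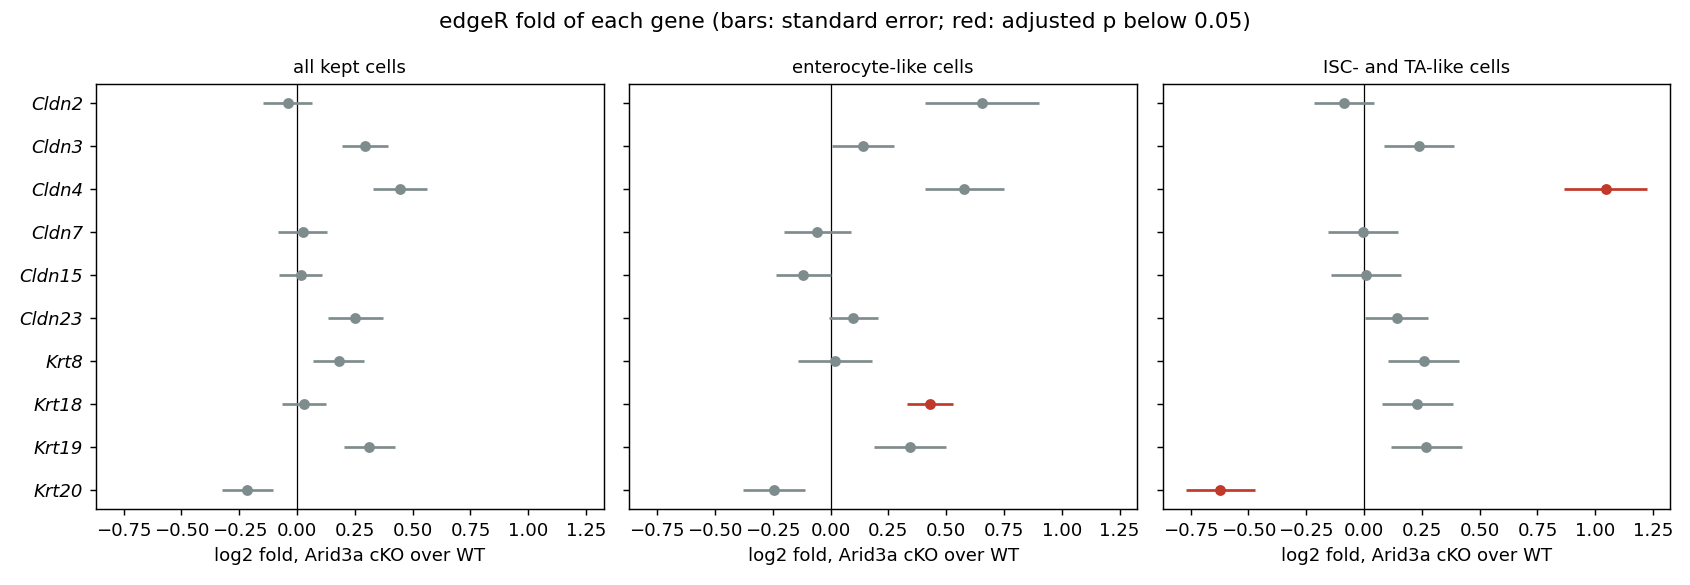
Log2 fold change of each gene, Arid3a cKO over WT, from edgeR in all kept cells, enterocyte-like cells and ISC- and TA-like cells, with bars of 1 standard error and red points for an adjusted p below 0.05. Cldn4 (1.05) and Krt20 (-0.62) are red in ISC- and TA-like cells and Krt18 (0.43) in enterocyte-like cells.

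A second rule without a model asked whether both cKO libraries differed from WT 1 by a log2 ratio of at least 0.5 in the same direction, among genes with a mean of at least 20 CPM. By this rule 1.07% of genes were separated in all kept cells, 1.59% in enterocyte-like cells and 0.892% in ISC- and TA-like cells, and 0 of the 10 genes were in any of the 3 sets. Cldn4 in ISC- and TA-like cells had log2 ratios of 0.88 and 0.59 but a mean under 20 CPM. Krt18 in enterocyte-like cells had 0.46 and 0.31, and Krt20 in ISC- and TA-like cells had -0.72 and -0.34.

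Whether the genotype difference itself depended on the cell set was tested with an interaction term over the 6 sums of enterocyte-like and ISC- and TA-like cells. This term was called for 1 of the 10 genes, against 1.12% of 11616 genes tested. Cldn2 had 5.31, 7.51 and 4.06 CPM in enterocyte-like cells and 100.1, 107 and 111 CPM in ISC- and TA-like cells. Both cKO libraries were thus above WT 1 in the first set and below it in the second. Along the crypt to villus order, Cldn2 had 4.79, 8.84 and 4.78 CPM in bin 4 and 2.42, 3.09 and 2.21 CPM in bin 5. In these mostly enterocyte-like bins, Arid3a cKO 1 was therefore close to WT 1. The difference between the log2 fold changes was 0.74 (SE 0.21, edgeR, adjusted p = 0.0475), while neither fold change alone passed (0.66, which moved with the cKO library left out as given above, and -0.09). The term was called in 2 of 7 alternative settings, and not with DESeq2. ISC markers in the enterocyte-like cells were highest in Arid3a cKO 1, whereas Cldn2 was highest in Arid3a cKO 2, and the share of either that comes from misplaced crypt cells was not tested.

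For Krt20 and Cldn4 the interaction had an unadjusted p below 0.05 but did not pass the adjustment: 0.38 (SE 0.15, adjusted p = 0.278) and -0.47 (SE 0.23, adjusted p = 0.533). The calls of both genes in ISC- and TA-like cells are therefore not shown to be particular to those cells. Along the crypt to villus order, Cldn4 was higher in both cKO libraries in 4 of 5 bins, from 26.3, 23.1 and 12.4 CPM in bin 1 to 6.35, 9.18 and 3.84 CPM in bin 5, and lower in bin 4 (7.34, 9.07 and 10.2 CPM). Krt20 was lower in both cKO libraries in 4 of 5 bins. The exception was bin 1, where both cKO libraries were above WT 1 (6.60, 8.86 and 5.80 CPM), whereas in bin 2 it had 28.5, 34.0 and 56.2 CPM.

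**Figure D4:**
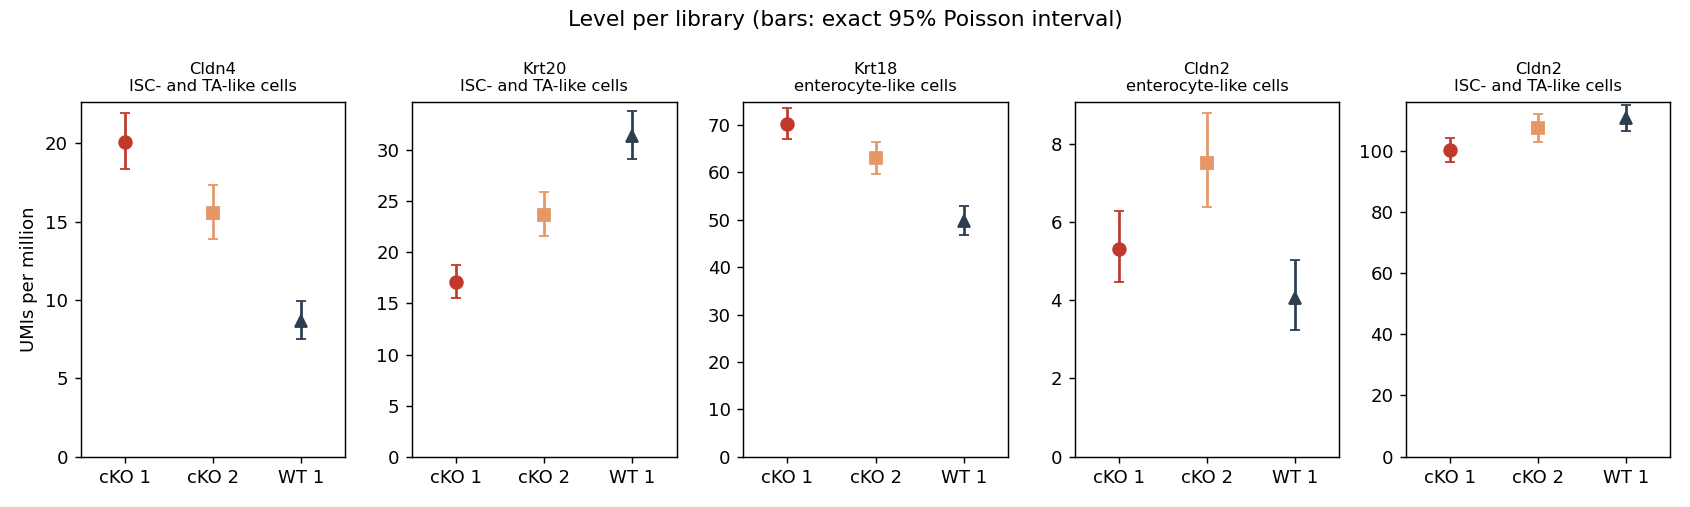
Level per library, in CPM with exact 95% Poisson intervals, of the genes with a called fold or interaction; every vertical axis starts at 0. Both cKO libraries are above WT 1 for Cldn4 in ISC- and TA-like cells (20.1 and 15.5 against 8.67 CPM) and below it for Krt20 (17.1 and 23.7 against 31.4 CPM), and Cldn2 differs in direction between the last 2 panels.

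The mix of claudins differed between cell sets mainly in Cldn2 and Cldn15. In ISC- and TA-like cells, Cldn7 made up 49.4%, 50.5% and 52.8% of the UMIs of the 6 claudins and Cldn3 33.4%, 32.3% and 29.4%. Cldn15 held 10.2%, 10.6% and 10.9% there and 17.0%, 16.5% and 18.2% in enterocyte-like cells. Cldn2 went from 4.02%, 4.10% and 4.56% in ISC- and TA-like cells to 0.222%, 0.314% and 0.169% in enterocyte-like cells. Cldn4 stayed under 1% in both sets, at 0.808%, 0.594% and 0.357% in ISC- and TA-like cells, so the called 2.06-fold difference concerned a small share of the claudin transcripts. Cldn4 held 9.70% to 12.2% in enteroendocrine-like cells, 4.80% to 12.8% in Paneth-like cells and 1.94% to 3.64% in goblet-like cells.

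Since filaments contain both chains, the UMIs of the 3 type I keratins were set against those of Krt8. The ratio was 1.08, 1.09 and 1.07 over all kept cells and differed between classes. It was 1.15, 1.14 and 1.15 in ISC- and TA-like cells, 0.91, 0.889 and 0.834 in enterocyte-like cells and 1.71, 1.54 and 1.79 in tuft-like cells. The main type I chain changed with the class: in ISC- and TA-like cells Krt19 held 40.9%, 41.7% and 40.9% of the UMIs of the 4 keratins, and in tuft-like cells Krt18 held 61.5%, 51.4% and 63.3%. In enterocyte-like cells Krt19 was still the largest type I share, at 32.4%, 28.0% and 25.1%, and Krt20 reached 13.4%, 17.3% and 19.0%. Transcript ratios do not measure the protein chains.

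The 10 genes held nearly all transcripts of their families in these cells. Of 19 other claudins 8 had no UMI and 2 reached a mean of 1 CPM over the libraries, Cldn12 and Cldn8, and the 6 claudins held 99.5% of claudin UMIs. Of 50 other keratins 25 had no UMI and 5 reached that mean, and the 4 keratins held 98.1% of keratin UMIs. Krt7, a type II keratin, was the most abundant of the others, at 61.3, 66.4 and 79.8 CPM, and fell in enterocyte-like cells (13.5, 10.5 and 19.1 CPM, log2 fold change -0.65, SE 0.15, edgeR, adjusted p = 0.0172). It was the 1 called among the 4 other keratins tested in these cells. Cldn18 had its UMIs almost wholly in Arid3a cKO 2 (0, 1.93 and 0.0638 CPM).

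The partners of claudins and keratins at the junctions were examined as a list of 33 genes: 15 tight junction partners, 9 adherens junction and adhesion genes, and 9 desmosome genes and keratin linkers. edgeR called 0 of them in all kept cells, enterocyte-like cells, ISC- and TA-like cells or the interaction. Of all genes tested it called 0.513%, 2.45%, 1.43% and 1.12%. DESeq2 likewise called 0, but gave 9 of them no adjusted p in the interaction. Unadjusted edgeR p-values below 0.05 numbered 2, 4, 2 and 2 in the list. Over all genes they numbered 1780 of 15986, 1675 of 11999, 1101 of 13749 and 1000 of 11616. The median log2 fold changes of the list were 0.018, -0.038 and -0.021 in the 3 cell sets, against -0.0044, 0.0038 and -0.00024 over all genes tested.

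The genes of this list with the largest fold changes are given by value. In ISC- and TA-like cells Pard6b, a polarity protein at tight junctions, had 13.1, 10.5 and 8.49 CPM (0.48, SE 0.19, adjusted p = 0.32), and Nectin2, an adhesion receptor, had 104, 100.3 and 83.6 CPM (0.29, SE 0.13, adjusted p = 0.468). In enterocyte-like cells Marveld3, a membrane protein of the tight junction, had 33.3, 32.6 and 41.3 CPM (-0.31, SE 0.10, adjusted p = 0.136). Among the keratin linkers Ppl, which encodes periplakin, had 3.21, 1.83 and 1.51 CPM there (0.76, SE 0.36, adjusted p = 0.354), and Evpl, which encodes envoplakin, had 8.21, 7.80 and 10.3 CPM (-0.35, SE 0.16, adjusted p = 0.338). Epcam, the protein used for sorting, had 1956, 1969 and 1665 CPM in all kept cells (0.27, SE 0.11, adjusted p = 0.406).

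Genes with the most similar pattern were found by Pearson's r of log2(CPM + 5) over 21 sums, 7 named classes in each of 3 libraries, among 5566 genes with a mean of at least 20 CPM. The sums share libraries and depth, so r is a description. Paneth-like cells also had the lowest CPM of the classes for most of the 10 genes and for Epcam. For Epcam the mean was 230 CPM there and 1058 CPM in enteroendocrine-like cells. A low shared in the Paneth-like sums raises r between genes, and r without these sums was not computed. The nearest gene was Rangrf for Cldn2 (0.98), Sri for Cldn3 (0.98), Rcn1 for Cldn4 (0.94), C1d for Cldn7 (0.99), Calu for Cldn15 (0.96) and Lurap1l for Cldn23 (0.97). For the keratins it was Erp29 for Krt8 (0.97), Myadm for Krt18 (0.94), Ptgr1 for Krt19 (0.97) and Prrc1 for Krt20 (0.95). Among the 10 genes themselves, Cldn3 and Cldn7 were the most alike (0.91), followed by Cldn23 and Krt19 (0.90), whereas the neighbours Cldn3 and Cldn4 had an r of -0.30 and Krt8 and Krt18 one of 0.66.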

How the data were processed

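Single cells of 2 Arid3a cKO libraries and 1 WT library were measured with the 10x Genomics 3′ assay. The authors aligned reads and counted UMIs with Cell Ranger 5.0.0, and deposited these raw counts of UMIs for each gene and barcode; the mouse genome build of the counting is not given in the sources used here. Cells with at least 1000 genes and at most 15% mitochondrial UMIs were kept, as in the study. They were integrated (Seurat 5.3.0, canonical correlation, 3000 genes, 30 dimensions) and clustered at resolution 0.3 without 120 claudin, keratin and junction genes. A cluster was named from marker lists with at least 3 markers among its top 50 genes; a minimum share of raised markers was added after the clusters were seen. No doublets were removed; the 5% of cells with the highest Scrublet score were left out as an alternative.

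UMIs were summed per library and cell set and tested with edgeR 4.0.16 (quasi-likelihood, TMM, at least 30 summed UMIs, Benjamini-Hochberg over all genes tested, threshold 0.05). DESeq2 1.42.0, other scalings, filters and clusterings, and leaving out each cKO library were the alternatives. Model steps were tested on simulated data. Poisson and binomial intervals cover counting error only. The 10 genes were fixed by name, and all are reported; of other genes, the called or the 3 largest folds per list, Epcam, and the nearest genes are named. The members and lists were chosen with earlier results of these data known.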

Additional observations from a re-analysis of the deposited data

Results flagged for a closer look

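The genotype difference of Cldn2 differed between cell sets, by the test of the difference itself: the log2 fold change (cKO over WT) in enterocyte-like cells exceeded that in ISC- and TA-like cells by 0.74 (SE 0.21, edgeR quasi-likelihood interaction, adjusted p = 0.0475). Over 7 alternative settings the difference ran from 0.55 to 0.87, with adjusted p from 0.0372 to 1.00. In enterocyte-like cells it rests on 139, 156 and 86 UMIs in Arid3a cKO 1, Arid3a cKO 2 and WT 1. In bin 4 of the crypt to villus order, which held mostly enterocyte-like cells, Cldn2 had 4.79, 8.84 and 4.78 CPM in these libraries. The fold in enterocyte-like cells was 0.92 without Arid3a cKO 1 and 0.37 without Arid3a cKO 2, each with no test.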

How the results depend on the processing

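No paired analysis was made, because the labels give no pairing of cKO and WT libraries. The 1 WT library could not be left out, and leaving out a cKO library leaves 1 library against 1, which gives a fold with no test. In all kept cells the number of the 10 genes called went from 0 to 1 (Cldn4) without the UMI filter and without the 5% highest Scrublet scores. In enterocyte-like cells it went from 1 to 0 with DESeq2, with scaling by total UMIs, with at least 500 genes and at most 25% mitochondrial UMIs, and with no integration, and to 3 (Cldn4, Krt18 and Cldn2, all higher) with at most 10% mitochondrial UMIs. In ISC- and TA-like cells it went from 2 to 0 with DESeq2 and to 1 (Cldn4) with scaling by total UMIs, the wider cell limits, resolution 0.8 or no integration. The interaction went from 1 to 0 with DESeq2, the wider cell limits, at most 10% mitochondrial UMIs, without the highest Scrublet scores and with no integration. The genes past the log2 ratio of 0.5 numbered 1 (Cldn4) in ISC- and TA-like cells with no minimum CPM, and 0 to 1 in enterocyte-like cells (Krt19) and in ISC- and TA-like cells (Krt20) when a cKO library was left out, the 1 in each being without Arid3a cKO 2. The cause of these changes was not tested.

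Leaving out a cKO library gave folds of 0.86 to 1.20 for Cldn4 and -0.89 to -0.39 for Krt20 in ISC- and TA-like cells and 0.37 to 0.48 for Krt18 in enterocyte-like cells. Without Arid3a cKO 1 the uncalled fold of Cldn23 in enterocyte-like cells was -0.02, and without integration the log2 ratio of its enterocyte-like to crypt level was -0.10. Uncalled folds near 0 changed sign: in all kept cells Cldn2 (0.033) and Cldn15 (-0.014) with the wider cell limits, and Cldn7 (-0.0093), Cldn15 (-0.018) and Krt18 (-0.0031) with scaling by total UMIs; in enterocyte-like cells Cldn23 with the wider cell limits (-0.036) and with no integration (-0.0086), and Krt8 with no integration (-0.062); in ISC- and TA-like cells Cldn7 with DESeq2 (0.0014) and Cldn15 without the highest Scrublet scores (-0.00053).

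Over all genes, calls in all kept cells went from 82 to 180 with scaling by total UMIs, 583 with no filter, 136 at 10% mitochondrial UMIs and 332 without the highest Scrublet scores. In enterocyte-like cells they went from 294 to 84 with DESeq2 and 174 with the wider limits. In ISC- and TA-like cells they went from 197 to 49 with DESeq2, 95 with total UMIs, 124 with the wider limits and 115 at resolution 0.8. Calls of the interaction went from 130 to 16 with DESeq2, and to 53, 35, 60 and 53 with the wider limits, 10% mitochondrial UMIs, no highest Scrublet scores and no integration. The share of Cldn2 among claudin UMIs in ISC- and TA-like cells (-0.49 points, cKO minus WT) and the keratin ratio moved by less than 1 SD in every alternative run.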

Other observations

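In the secretory classes and the Ccl20-led cluster, where no genotype test was run, the keratins and claudins are given by value alone, in the order Arid3a cKO 1, Arid3a cKO 2 and WT 1. Krt20 had 302, 311 and 363 CPM in goblet-like cells, 423, 472 and 624 CPM in enteroendocrine-like cells and 186, 203 and 259 CPM in the Ccl20-led cluster, with WT 1 the highest each time. In tuft-like cells it had 14.4, 43.9 and 28.4 CPM on 7, 18 and 13 UMIs, and the groups overlapped. Cldn3 had 1094, 992 and 854 CPM in goblet-like cells and 434, 405 and 308 CPM in enteroendocrine-like cells, with WT 1 the lowest. Krt18 had 1908, 1771 and 1656 CPM in goblet-like cells and 293, 292 and 228 CPM in the Ccl20-led cluster, again with WT 1 the lowest, whereas in tuft-like cells WT 1 was the highest. Cldn4 had 91.3, 58.5 and 45.1 CPM in goblet-like cells, where the libraries lay in the same order as in ISC- and TA-like cells. These values were chosen after they were seen and were not tested.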
